A study of Homo sapiens with 6 samples.

Results

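The genes described here encode the DNA replication machinery: the proteins that prepare replication origins, unwind the DNA, copy both strands, join the fragments of the lagging strand, protect the fork and supply deoxynucleotides. The 42 genes were chosen by symbol from the 62700 genes of the count table, by a rule that uses no measured value but was written with earlier results of these data known, and all 42 passed the filter on low counts that left 19682 genes for testing. RNA was sequenced in 6 libraries of KYSE510, an established line of oesophageal squamous cell carcinoma cultured in medium with serum. In 3 libraries the cells carried a control shRNA (shControl; labelled wild type), and in 3 they carried an shRNA against a gene that the labels call RNH1 and describe as a ribonuclease (shRNH1; labelled RNH1 knockdown), made as a model of induced R-loops, in which an RNA strand pairs with DNA. The labels name 1 shRNA construct and do not say whether the cells were a clone or a pool, so effects of this construct and of the knockdown cannot be told apart.

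Replication starts at origins that the origin recognition complex marks. There CDC6 and CDT1 load the MCM2-7 ring in G1 phase. In S phase CDC45 and GINS turn the ring into the active helicase, polymerase alpha-primase lays down primers, and polymerases delta and epsilon extend them with the help of the PCNA clamp. In cycling cells many of these genes are transcribed around the G1/S transition under E2F factors, and carcinoma lines such as KYSE510 cycle continuously.

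The knockdown was checked first. RNASEH1, which encodes the nuclease that cuts RNA paired with DNA, fell to 22.6% of its control level (log2 fold change -2.14, SE 0.116; exact two-sided permutation test of the normalised levels p = 0.1, the smallest that 3 against 3 allows), whereas the gene with the approved symbol RNH1, the ribonuclease inhibitor, measured 546 ± 97.4 and 478 ± 45.5 CPM (counts scaled to library size after TMM normalisation; SD, n = 3 each) and overlapped between groups. The library totals were 40225486 to 41103220 counts in shControl and 31394687 to 33421217 in shRNH1, deep enough that the least abundant of the 42 genes still had 169 counts or more in every library. All 8 squamous epithelium markers were detected, among them TP63 at 53.3 ± 3.64 and 52.5 ± 4.38 CPM, but 4 of the 8 fell (KRT5, KRT14, KRT6A and SFN) and 2 rose (PERP and JUP). Of the fibroblast markers 2 of 7 could be tested, with COL1A1 higher and PDGFRB lower, and COL1A2 and DCN were listed at 0 throughout. The 7 leukocyte markers summed to at most 10.2 CPM and the 5 endothelial markers to 18.6 to 21.8 CPM. The part of these shifts in the results below was not tested.

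Between shRNH1 and shControl, 6 of the 42 replication genes rose and 4 fell, so calls of both directions occurred. The split depends on the scaling: with library size alone 13 were higher and 3 lower, and with an offset for expression level 9 were higher and 3 lower. The 6 that rose were RPA3, MCM6, PCNA, RRM1, POLD2 and GINS1, and the 4 that fell were TYMS, TIPIN, CDT1 and MCM7. These calls rest on the quasi-likelihood test of edgeR, with p adjusted by the Benjamini-Hochberg method over all 19682 genes and a threshold of 0.05; every adjusted p below comes from it unless DESeq2 is named. The 10 called genes were 23.8% of the 42. Over all genes tested 27.6% passed (15.3% higher, 12.3% lower), and of the 9865 genes at or above the abundance of the least abundant replication gene 37.1% passed. The share of replication genes that changed thus lay near or below the background. In 15 of the 42 genes (35.7%), 9 higher and 6 lower, the CPM of the groups did not overlap, against 40.0% of all genes tested and 49.3% of those at or above the lowest replication gene's abundance.

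Changes in the replication genes were small. Log2 fold changes ran from -0.59 in TYMS to 0.66 in RPA3, 21 were positive and 21 negative, and the median was -0.007 against 0.016 over all genes tested. The median absolute log2 fold change was 0.167, against 0.275 over all genes and 0.204 over those at or above the lowest replication gene's abundance. In 3 of the 42 genes (7.14%), RPA3, TYMS and TIPIN, it reached 0.5, against 26.4% of all genes tested and 14.6% of those at or above that abundance. Standard errors lay between 0.0907 and 0.144. Of the 32 genes that did not pass, 31 had a 95% interval that lay wholly within 1.5-fold in either direction, and the interval of PRIM1 reached beyond it. Summed over the 42 genes, CPM came to 5514, 5312 and 5569 in shControl against 5600, 5223 and 5461 in shRNH1. On this scale the sums overlapped, with the lowest and the highest both in shRNH1. As a share of all counts of a library, with no TMM factor, the 42 genes took 0.534%, 0.534% and 0.507% in shControl against 0.568%, 0.549% and 0.574% in shRNH1, and every shRNH1 library was higher. In bulk RNA, the share of cells in S phase and the RNA per such cell cannot be told apart.

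**Figure D1:**
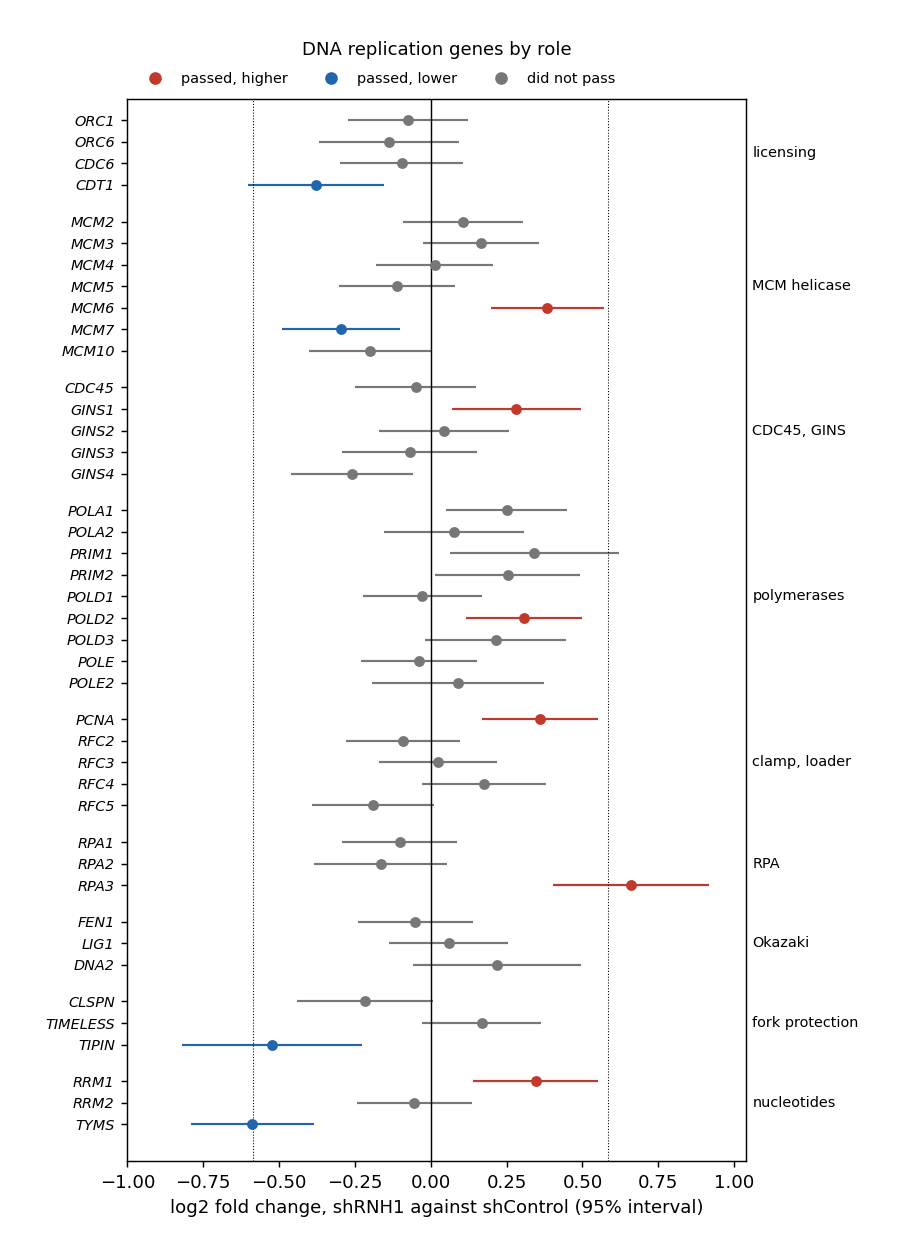
Log2 fold change of each of the 42 replication genes, shRNH1 against shControl (x axis), with its 95% interval from edgeR's fit (n = 3 libraries each), by role (y axis); dotted lines mark 1.5-fold in either direction. Of the 42 genes, 6 passed as higher and 4 as lower, and calls of both directions lay within the MCM ring and within the nucleotide supply genes.

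**Figure D2:**
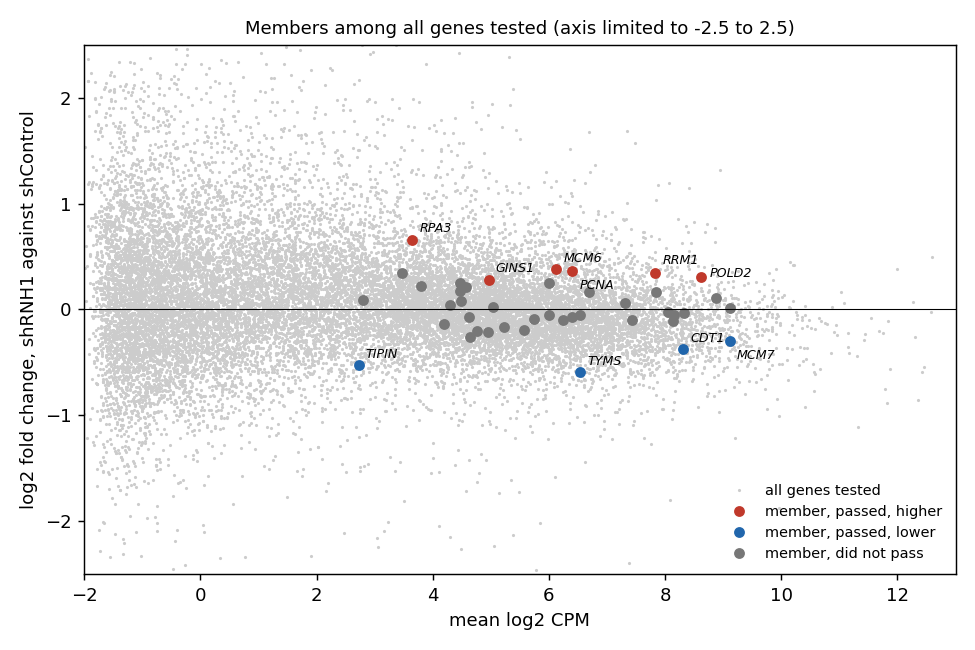
Log2 fold change (y axis) against mean log2 CPM (x axis) for the 19682 genes tested (small grey points; genes beyond the y axis limits are not drawn) and the 42 replication genes (large points). The replication genes lay at mean log2 CPM of 2.73 to 9.12 and between -0.59 and 0.66 on the y axis.

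A sequence feature that the choice of genes did not use was looked for in their promoters. RefSeq promoters (GRCh38.p14, 250 bases before to 50 after the annotated start) were found for 35 of the 42 genes, 44 windows in all. The E2F core was searched on both strands as TTCCCGC or TTGGCGC or TTCGCGC or TTGCCGC, words that can overlap each other. It was present in 29 of the 44 windows (65.91%) and in 28 of the 35 genes, against 12.97% of the 35116 windows of this length in the table and 18.4% of the 17073 windows of genes tested. CCAAT, the NF-Y box, was in 61.36% of the windows against 34.61% of all windows and 34.43% of the windows of genes tested. TTTGAA, the CHR element of genes expressed in G2 and mitosis, was in 2.27%, namely in RRM1 alone. It was in 15.16% of all windows and in 10.65% of the windows of genes tested. A match is a run of letters and not a measured binding site.

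The E2F core stood in 8 of the 9 called genes with a promoter entry, in genes that rose and in genes that fell. Among all 35 replication genes with an entry it stood in 28. By window the counts were 9 of 13 for called genes and 29 of 44 for all. The windows below are the 250 bases before the start, 5′ to 3′ on the gene's strand, of the 5 called genes with a match and the lowest adjusted p, with E2F core letters in capitals. The start is the RefSeq start of the transcript, and for TIPIN and CDT1 the window lies inside the longer GENCODE 29 gene given below. They are shown because the same core precedes this start in TYMS (chr18:657403-657652, plus strand), TIPIN (chr15:66356686-66356935, minus strand) and CDT1 (chr16:88803539-88803788, plus strand), which fell, and MCM6 (chr2:135876444-135876693, minus strand) and PCNA (chr20:5126623-5126872, minus strand), which rose.
TYMS: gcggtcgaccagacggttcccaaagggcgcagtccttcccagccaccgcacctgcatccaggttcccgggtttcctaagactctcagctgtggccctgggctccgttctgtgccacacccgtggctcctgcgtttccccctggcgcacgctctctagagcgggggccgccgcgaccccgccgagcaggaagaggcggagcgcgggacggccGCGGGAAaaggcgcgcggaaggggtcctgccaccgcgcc
MCM6: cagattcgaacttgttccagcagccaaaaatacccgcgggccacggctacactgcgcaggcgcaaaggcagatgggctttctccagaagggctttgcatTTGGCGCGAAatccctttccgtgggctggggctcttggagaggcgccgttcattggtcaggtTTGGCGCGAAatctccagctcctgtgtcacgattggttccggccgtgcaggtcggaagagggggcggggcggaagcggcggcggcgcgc
PCNA: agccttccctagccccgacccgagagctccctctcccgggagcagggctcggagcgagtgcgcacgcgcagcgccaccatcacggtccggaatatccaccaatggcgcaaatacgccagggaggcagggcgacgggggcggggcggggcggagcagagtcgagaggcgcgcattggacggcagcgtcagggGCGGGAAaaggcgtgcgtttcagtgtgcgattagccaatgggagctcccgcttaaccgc
TIPIN: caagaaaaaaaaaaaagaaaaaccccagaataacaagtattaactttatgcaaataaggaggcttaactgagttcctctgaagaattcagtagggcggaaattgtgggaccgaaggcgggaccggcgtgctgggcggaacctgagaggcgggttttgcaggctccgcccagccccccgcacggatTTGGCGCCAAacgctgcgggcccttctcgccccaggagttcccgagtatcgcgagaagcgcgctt
CDT1: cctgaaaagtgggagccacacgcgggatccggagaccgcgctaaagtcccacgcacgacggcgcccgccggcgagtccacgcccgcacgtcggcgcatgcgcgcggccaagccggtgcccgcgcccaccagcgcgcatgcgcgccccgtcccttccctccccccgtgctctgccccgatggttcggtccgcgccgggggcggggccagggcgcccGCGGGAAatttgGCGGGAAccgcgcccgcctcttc
In MCM6 and TIPIN the capitals are overlapping matches on opposite strands, 2 such pairs in MCM6 and 1 in TIPIN, and CDT1 has 2 separate matches. PCNA and TIPIN each had a second RefSeq window, not shown, with no E2F core match. CCAAT boxes were found in the windows of MCM6 and in both windows of PCNA, in the second window of TIPIN but not in the one shown, and not in those of TYMS and CDT1.

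Among the licensing factors CDT1 fell and the other 3 genes did not pass. CDT1, which loads the MCM ring and is held in check by geminin, lies on chromosome 16, 88803213 to 88809258 (GRCh38, as for all positions below). The control libraries held 13114, 12921 and 15669 counts of it and the shRNH1 libraries 8671, 10652 and 8837, or 337, 313 and 425 CPM against 256, 303 and 268. Every shRNH1 library lay below every shControl library, the third control library stood well above the other two, and the gap between 303 and 313 CPM was narrow. The mean fell from 358 ± 59.3 to 276 ± 24.7 CPM (SD, n = 3 each), a log2 fold change of -0.38 (SE 0.108; edgeR adjusted p = 0.00954). CDT1 did not pass without shControl replicate 3 (-0.23, edgeR adjusted p = 0.0630), without shRNH1 replicate 1 (-0.33, edgeR adjusted p = 0.0833) or with an offset for expression level (-0.24, edgeR adjusted p = 0.101). ORC1, the ATPase subunit of the origin recognition complex (-0.07), ORC6, its smallest subunit (-0.14), and CDC6, which loads the ring together with CDT1 (-0.10), all overlapped between groups.

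Within the MCM2-7 ring, whose subunits occur once each per hexamer, MCM6 rose and MCM7 fell. MCM6 (chromosome 2, 135839626 to 135876426) had 2485, 2398 and 2185 counts in the controls against 2744, 2624 and 2665 after knockdown. In CPM these were 63.8, 58.0 and 59.3 against 80.9, 74.7 and 80.8, and each group lay close together with a clear gap between them. The mean rose from 60.4 ± 3.06 to 78.8 ± 3.54 CPM (SD, n = 3 each), a log2 fold change of 0.38 (SE 0.0907; edgeR adjusted p = 0.00201).

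MCM7 (chromosome 7, 100092728 to 100101940) was counted 23775, 24179 and 23456 times in the controls and 17686, 16756 and 16292 times after knockdown. Its CPM were 611, 585 and 637 against 522, 477 and 494, so that the shRNH1 libraries were all lower. The mean fell from 611 ± 25.8 to 497 ± 22.4 CPM (SD, n = 3 each; log2 fold change -0.30, SE 0.0942; edgeR adjusted p = 0.0193). The fall of MCM7 did not pass with library size alone (-0.18, edgeR adjusted p = 0.0605) or with the expression offset (-0.13, edgeR adjusted p = 0.329), nor without shControl replicate 1 (-0.30, edgeR adjusted p = 0.0857) or shRNH1 replicate 3 (-0.29, edgeR adjusted p = 0.0865). AP4M1, which overlaps 8.94% of the exonic bases of MCM7 on the other strand, was far less abundant (7.44 and 8.74 CPM) and did not pass (0.23, edgeR adjusted p = 0.1995).

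The other ring subunits did not pass: MCM2 (0.11), MCM3 (0.16), MCM4 (0.01) and MCM5 (-0.11) all overlapped between groups. MCM10, which helps to start the helicase and is no ring subunit, measured 30.3, 28.98 and 27.5 CPM in shControl against 24.2, 24.9 and 26.3 in shRNH1. Its groups did not overlap, but at -0.20 (SE 0.0974) it did not pass (edgeR adjusted p = 0.133).

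Because every subunit of a complex was measured in the same libraries, ratios between subunits do not depend on a scaling factor shared by all genes of a library. An offset for expression level differs between abundant and scarce transcripts and can change them, and the ratios were not computed with it. The pairs given here were chosen after their values were seen, and levels are CPM per kilobase of exonic length (GENCODE 29). The ratio of MCM7 to MCM6 was 8.98, 9.47 and 10.1 in shControl against 6.05, 5.995 and 5.74 in shRNH1. The groups were far apart compared with their spread (9.51 ± 0.549 and 5.93 ± 0.166; SD, n = 3 each). MCM7 remained the most abundant ring transcript per kilobase and MCM6 the least abundant in both groups, at 139 and 14.7 CPM per kilobase in shControl and 113 and 19.1 in shRNH1. The first place of MCM7 in shRNH1 depends on the length used. In CPM, MCM4 stood above MCM7 in every shRNH1 library (584, 527 and 570 against 522, 477 and 494).

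CDC45 and the GINS complex, which together with the MCM ring form the helicase, held 1 call in 5 genes. GINS1 (chromosome 20, 25407727 to 25452628) had 1219, 1146 and 929 counts in the controls against 1133, 1118 and 1227, or 31.3, 27.7 and 25.2 CPM against 33.4, 31.8 and 37.2. The highest control library came close to the lowest knockdown library, but the groups did not overlap. GINS1 rose from 28.1 ± 3.07 to 34.1 ± 2.75 CPM (SD, n = 3 each; log2 fold change 0.28, SE 0.103; edgeR adjusted p = 0.0429). It passed in 6 of 14 alternatives, in which the log2 fold change ran from 0.21 to 0.39, and failed among others with DESeq2 (0.26, adjusted p = 0.0997), without shControl replicate 3 (0.21, edgeR adjusted p = 0.173) and without shRNH1 replicate 3 (0.22, edgeR adjusted p = 0.203).

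GINS4 had the second largest log2 fold change among the genes that did not pass. The control libraries held 1056, 1118 and 989 counts and the knockdown libraries 811, 769 and 723, at CPM of 27.1, 27.0 and 26.8 against 23.9, 21.9 and 21.9. The shRNH1 libraries were all lower, at a mean of 22.6 ± 1.16 against 27.0 ± 0.147 CPM (SD, n = 3 each). At -0.26 (SE 0.0978) on the log2 scale its edgeR adjusted p was 0.05001, just above the threshold, and it passed by DESeq2 (-0.28, adjusted p = 0.0335) and in 4 of the 14 alternatives in all. The GINS1 to GINS4 ratio per kilobase was 1.55, 1.38 and 1.26 in shControl against 1.88, 1.96 and 2.28 in shRNH1. All shRNH1 ratios were higher (1.40 ± 0.146 and 2.04 ± 0.215; SD, n = 3 each). GINS2 (0.04), GINS3 (-0.07) and CDC45 (-0.05) overlapped between groups.

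Of the 9 polymerase and primase genes POLD2 passed, and the group's median log2 fold change was 0.21. POLD2, the accessory subunit that joins the catalytic subunit of polymerase delta to POLD3, lies on chromosome 7, 44114681 to 44124358. It had 13529, 14421 and 13023 counts in the controls against 15759, 14386 and 13995, or 348, 349 and 353 CPM against 465, 410 and 424. The control libraries agreed within a few CPM and the knockdown libraries all lay above them, at 350 ± 3.09 and 433 ± 28.5 CPM (SD, n = 3 each). POLD2 rose by 0.31 on the log2 scale (SE 0.0931; edgeR adjusted p = 0.0142). It did not pass without shControl replicate 1 (0.30, edgeR adjusted p = 0.0799) or without shRNH1 replicate 1 (0.25, edgeR adjusted p = 0.0839). A POLD2 pseudogene had at most 8 counts in a library. POLD1, the catalytic subunit (-0.03), and POLD3 (0.21) overlapped between groups.

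The 4 genes of polymerase alpha-primase were all positive, and none passed. Of the 14 alternatives, PRIM1 and POLA1 each passed in 4, PRIM2 in 2 and POLA2 in 0. PRIM1, the catalytic primase subunit, had 462, 374 and 302 counts in the controls against 421, 383 and 449, or 11.9, 9.05 and 8.20 CPM against 12.4, 10.9 and 13.6. One control library lay within the knockdown range. Its log2 fold change of 0.34 (SE 0.136; edgeR adjusted p = 0.0623) was the largest among the genes that did not pass. PRIM2, the regulatory primase subunit, had 882, 864 and 621 counts in the controls against 830, 740 and 876. Its CPM of 22.7, 20.9 and 16.8 against 24.5, 21.1 and 26.6 overlapped, with a log2 fold change of 0.25 (SE 0.116; edgeR adjusted p = 0.109). POLA1, the catalytic subunit of polymerase alpha, measured 62.5, 59.8 and 52.7 CPM in shControl against 65.6, 66.1 and 76.4 in shRNH1. Its groups did not overlap, and it did not pass (0.25, SE 0.0969; edgeR adjusted p = 0.0553). POLA2, its regulatory subunit, was at 0.08, and POLE and POLE2, the catalytic and an accessory subunit of polymerase epsilon, were at -0.04 and 0.09, each with overlapping groups.

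PCNA rose and the 4 small clamp loader subunits did not pass. PCNA, the sliding clamp that tethers polymerases to DNA, lies on chromosome 20, 5114953 to 5126626. Counts of 3084, 3032 and 2571 in the controls stood against 3306, 3092 and 3295 after knockdown, or CPM of 79.2, 73.4 and 69.8 against 97.5, 88.0 and 99.9. All knockdown libraries were higher than all controls. PCNA rose from 74.1 ± 4.77 to 95.1 ± 6.26 CPM (SD, n = 3 each), a log2 fold change of 0.36 (SE 0.0926; edgeR adjusted p = 0.0042). RFC4 measured 20.6, 20.4 and 21.0 CPM in shControl against 23.6, 24.1 and 22.2 in shRNH1, which did not overlap, and did not pass (0.17, edgeR adjusted p = 0.207). RFC2 (-0.09), RFC3 (0.02) and RFC5 (-0.19), the other loader subunits, overlapped between groups.

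RPA, the trimer that coats single-stranded DNA, had the largest rise of the 42 genes in its smallest subunit. RPA3 (chromosome 7, 7636518 to 7718607) had 419, 377 and 338 counts in the controls against 458, 515 and 586 after knockdown. Its CPM were 10.8, 9.12 and 9.17 against 13.5, 14.7 and 17.8, with every shRNH1 library well above every shControl library and the widest spread in shRNH1. The mean rose from 9.69 ± 0.934 to 15.3 ± 2.20 CPM (SD, n = 3 each), 1.58-fold (95% interval 1.32 to 1.89; log2 fold change 0.66, SE 0.124; edgeR adjusted p = 2.02e-04). UMAD1, a gene on the other strand that shares 3.65% of the exonic bases of RPA3, rose from 4.55 to 6.67 CPM (log2 fold change 0.55; edgeR adjusted p = 0.00493). Whether the counting used strand is not stated, so reads from the shared stretch cannot be assigned, and their part in the rise of RPA3 was not tested.

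RPA1, the large DNA-binding subunit (-0.10), and RPA2, the subunit phosphorylated under replication stress (-0.17), overlapped between groups. The RPA1 to RPA3 ratio per kilobase was 10.3, 11.4 and 10.8 in shControl against 7.44, 6.11 and 5.75 in shRNH1. The ratio was lower in every shRNH1 library, at 10.8 ± 0.535 and 6.43 ± 0.891 (SD, n = 3 each), and RPA3 remained the least abundant of the 3 transcripts.

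None of the 3 genes of Okazaki fragment maturation passed. FEN1, the flap endonuclease (-0.05), LIG1, the ligase that seals the fragments (0.06), and DNA2, a nuclease for long flaps (0.22, SE 0.135), all overlapped between groups. FEN1 varied between 86.1 and 98.2 CPM over the 6 libraries.

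Of the fork protection genes TIPIN fell. TIPIN, the partner of TIMELESS in the fork protection complex, lies on chromosome 15, 66336206 to 66386746, and was among the least abundant of the 42 genes. The controls held 302, 343 and 260 counts and the knockdown libraries 207, 169 and 171, at CPM of 7.76, 8.30 and 7.06 against 6.10, 4.81 and 5.18. The groups did not overlap. TIPIN fell from 7.70 ± 0.623 to 5.37 ± 0.665 CPM (SD, n = 3 each), to 69.6% of the control level (95% interval 56.7% to 85.5%; log2 fold change -0.52, SE 0.144; edgeR adjusted p = 0.00718). TIMELESS itself measured 96.7, 96.3 and 97.0 CPM in shControl against 123, 97.9 and 105 in shRNH1. Its groups were separate but close, and at 0.17 (SE 0.0950) on the log2 scale it did not pass (edgeR adjusted p = 0.206). The TIMELESS to TIPIN ratio per kilobase was 5.90, 5.50 and 6.51 in shControl against 9.51, 9.64 and 9.61 in shRNH1, higher in all shRNH1 libraries. CLSPN, the mediator that hands the ATR signal to CHK1, overlapped between groups (-0.22, SE 0.110; edgeR adjusted p = 0.152).

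The nucleotide supply genes moved apart: RRM1 rose, TYMS fell and RRM2 did not pass. TYMS, which makes thymidylate and is the target of fluorouracil, lies on chromosome 18, 657604 to 673578. It had 4275, 4033 and 4703 counts in the controls against 2462, 2647 and 2466, or 110, 97.6 and 128 CPM against 72.6, 75.4 and 74.7. The shRNH1 libraries lay close together and far below the lowest control. TYMS fell from 112 ± 15.1 to 74.2 ± 1.46 CPM (SD, n = 3 each), to 66.5% of the control level (95% interval 57.8% to 76.5%), and had the lowest adjusted p of the 42 genes (log2 fold change -0.59, SE 0.0985; edgeR adjusted p = 4.84e-05).

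ENOSF1 overlaps 39.1% of the exonic bases of TYMS on the other strand and measured 41.99 CPM in shControl and 35.8 in shRNH1. Its log2 fold change of -0.23 did not pass (edgeR adjusted p = 0.0852). Reads from the shared stretch cannot be assigned, and their part in the fall of TYMS was not tested.

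RRM1 (chromosome 11, 4094707 to 4138876), the large subunit of ribonucleotide reductase, had 8322, 8466 and 6711 counts in the controls against 8566, 7952 and 9382. Its CPM were 214, 205 and 182 against 253, 226 and 284, with all shRNH1 libraries higher. RRM1 rose from 200.2 ± 16.3 to 254 ± 29.02 CPM (SD, n = 3 each; log2 fold change 0.35, SE 0.09995; edgeR adjusted p = 0.0102). Without shRNH1 replicate 3, the highest library, it did not pass (0.26, edgeR adjusted p = 0.112). RRM2, the small subunit whose level follows the cell cycle, measured 294, 284 and 287 CPM in shControl against 280, 258 and 295 in shRNH1 and overlapped (-0.05). The RRM1 to RRM2 ratio per kilobase was 0.927, 0.918 and 0.808 in shControl against 1.15, 1.12 and 1.23 in shRNH1, so the ratio was higher in every shRNH1 library. In shRNH1, which of the 2 transcripts is the more abundant depends on the length used, since RRM2 had the higher CPM in all 6 libraries. In shControl RRM2 was the higher by both measures.

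**Figure D3:**
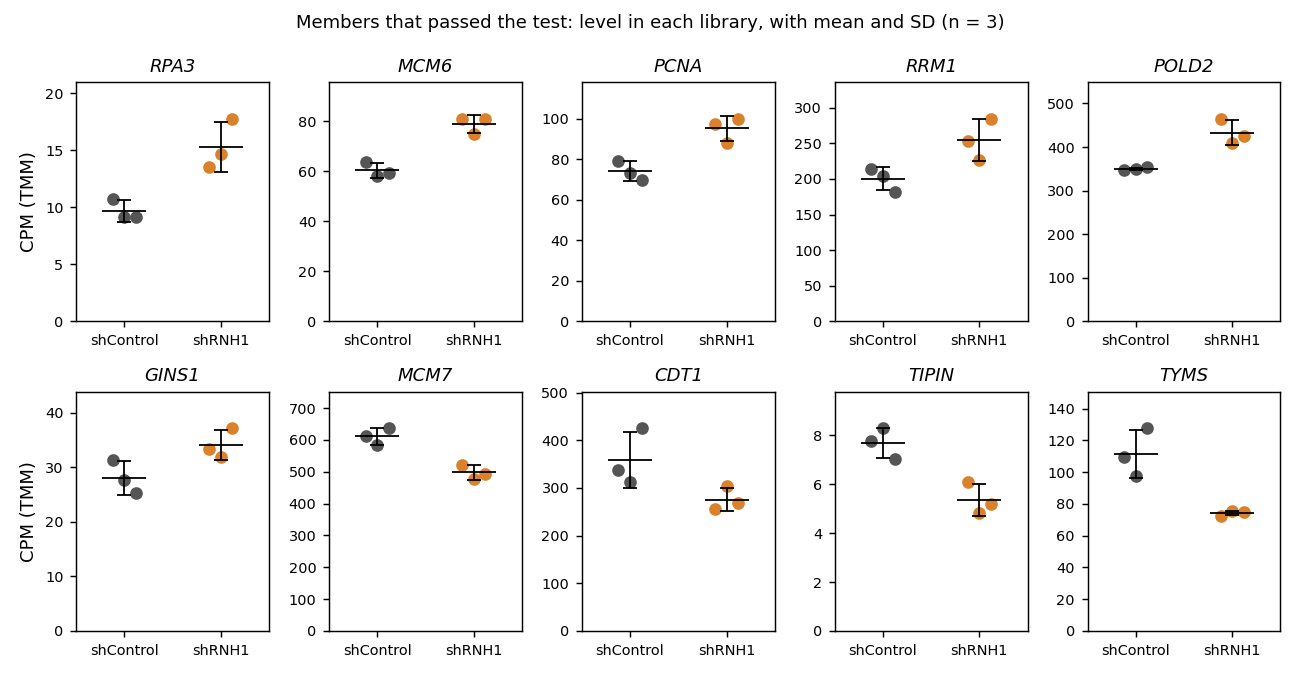
CPM (y axis, TMM-normalised, from 0) of the 10 replication genes that passed, in each of 3 shControl and 3 shRNH1 libraries (points), with the mean and SD (bars). The groups do not overlap in any of the 10 genes, and the gaps are narrowest for GINS1 and CDT1.

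**Figure D4:**
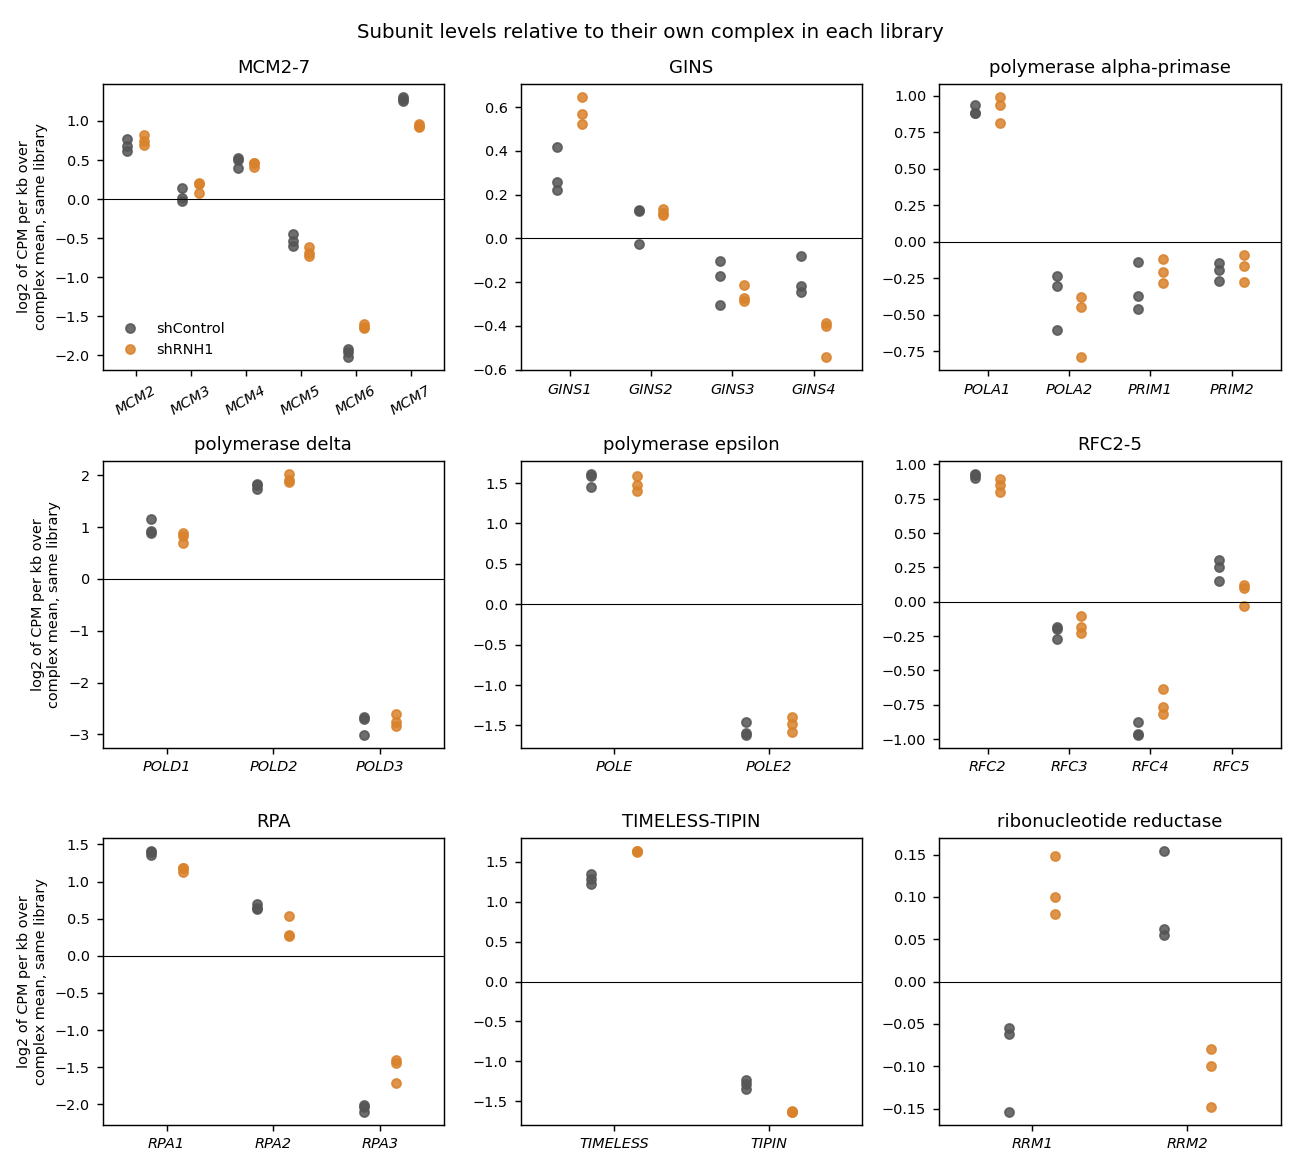
Log2 ratio of each subunit's CPM per kilobase of exonic length to the geometric mean of its complex in the same library (y axis), for 30 subunits of 9 complexes (x axis); points are libraries. The groups do not overlap for 17 of the 30 subunits, among them MCM6, MCM7, RPA3, TIPIN and RRM1. No such share was computed for other genes, so this count has no background. Subunits of a complex share its mean and are not independent: RPA1 and RPA2 are counted though their CPM overlapped between groups. In complexes with 2 subunits shown the panels mirror each other by construction.

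By level, the 42 transcripts spanned a wide range. Per kilobase of exonic length in shControl, MCM7 (139 CPM per kilobase), CDT1 (107), POLD2 (94.7), MCM2 (92.4) and MCM4 (79.7) stood highest. The ranges over libraries of CDT1, POLD2 and MCM2 overlapped in shControl, so their order is not set by these data. At the low end stood POLE2 (2.27), DNA2 (2.65), TIPIN (2.80) and RPA3 (2.997), of which DNA2 overlapped the other 3. In shRNH1 POLD2 (117) came first and MCM7 (113) second, with overlapping ranges, and TIPIN (1.95) was lowest. The order depends on the length used. In CPM the shRNH1 mean of POLD2 (433) lay below those of MCM4 (561), MCM7 (497) and MCM2 (488). Of the genes named here for their level, MCM7, CDT1, POLD2, RPA3 and TIPIN passed the test, and MCM2, MCM4, POLE2 and DNA2 did not.

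**Figure D5:**
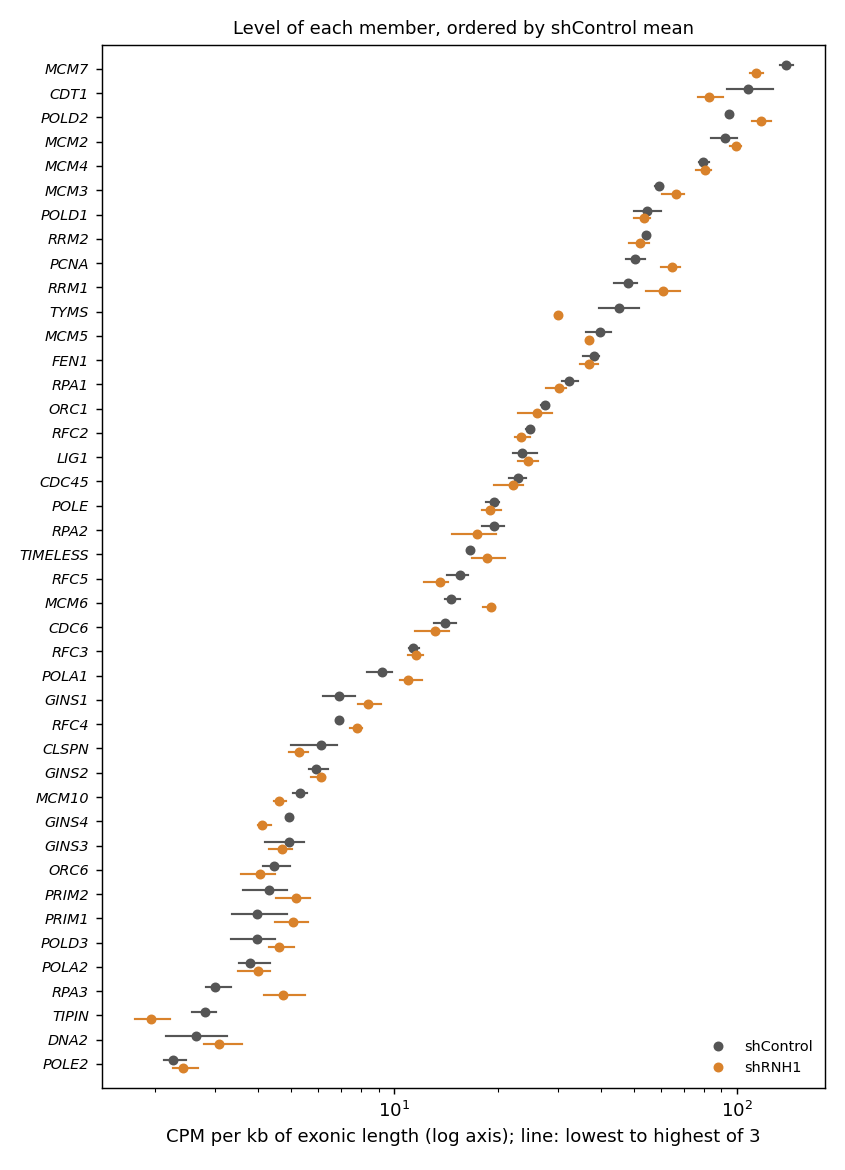
CPM per kilobase of exonic length (log x axis) of the 42 replication genes, ordered by their shControl mean (y axis); points are group means and lines run from the lowest to the highest of 3 libraries. Levels run from 2.27 (POLE2) to 139 (MCM7) in shControl, and the shRNH1 lines lie beside the shControl lines for most genes.

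Other genes of the pathway, taken from lists by role, also split. Of 115 such genes 17 rose and 20 fell (32.2%, against 27.6% of all genes tested). Of genes at or above the lowest replication gene's abundance 37.1% passed, though some of the 115, such as POLI, were less abundant than that. Among other origin factors 0 rose and 2 of 16 fell: DBF4B (-0.30) and DBF4 (-0.32), the activators of the CDC7 kinase that fires origins. Other polymerase and clamp loader subunits had 2 higher and 3 lower of 9, with POLE3 (-0.29), POLE4 (-0.27) and DSCC1 (-0.31) lower and CHTF18 (0.30) higher. The ATR and fork remodelling genes had 2 higher of 13, HLTF (0.55), a fork remodelling translocase, and ETAA1 (0.31), an activator of ATR. Of 9 translesion synthesis genes RAD18 (-0.31), which ubiquitylates PCNA, fell.

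Other nucleotide synthesis genes had 5 higher and 4 lower of 17. CTPS1, a CTP synthase, fell from 177 ± 6.95 to 133 ± 10.5 CPM (-0.41; edgeR adjusted p = 0.00122), and TK1, the thymidine salvage kinase, fell from 164 ± 8.13 to 130 ± 7.87 CPM (-0.34; edgeR adjusted p = 0.00571; SD, n = 3 each). RRM2B, the p53-inducible reductase subunit, also fell (-0.47; edgeR adjusted p = 0.00682), and SAMHD1, which degrades deoxynucleotides, rose (0.35; edgeR adjusted p = 0.00662). The thymidylate genes TYMS and TK1 thus both had lower transcript levels in shRNH1. Of 9 chromatin assembly genes 1 rose and 2 fell: the histone chaperone gene ASF1B rose (0.53; edgeR adjusted p = 9.27e-05), whereas TONSL (-0.59; edgeR adjusted p = 1.77e-04), a reader of newly made chromatin, and UHRF1 (-0.27), which recruits the maintenance methyltransferase, fell.

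The regulators of the G1/S transition had 6 higher and 2 lower of 22. E2F2, an activator E2F, rose from 67.1 ± 5.83 to 107 ± 2.31 CPM (0.68; edgeR adjusted p = 2.93e-06), and E2F4, an E2F found mostly in repressor complexes, fell from 236 ± 5.77 to 169 ± 8.23 CPM (-0.48; edgeR adjusted p = 1.92e-04; SD, n = 3 each). CDC25A, the phosphatase that activates CDK2, fell (-0.52; edgeR adjusted p = 6.04e-05), and CDKN1A, the p21 inhibitor of cyclin-dependent kinases, rose (0.46; edgeR adjusted p = 2.40e-04). Of 20 mitosis and proliferation genes 1 rose and 6 fell at a median of -0.21, the largest fall being in CDC20, which directs the anaphase-promoting complex, from 732 ± 113 to 466 ± 32.7 CPM (SD, n = 3 each; -0.65; edgeR adjusted p = 3.96e-05). CCNB1 (-0.43), AURKB (-0.37) and AURKA (-0.37) were lower as well. The mitosis genes summed to 3903 to 4146 CPM in shControl and 3191 to 3435 CPM in shRNH1, which did not overlap on this TMM scale. Whether a shift in cell cycle phase took part in any of these differences was not tested.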

How the data were processed

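RNA was measured in 3 shControl and 3 shRNH1 libraries. The values deposited by the authors are raw counts per gene for 62700 Ensembl IDs. The submitters' processing notes name HISAT2, StringTie, DESeq2 and the GRCh38 build, with no role for each; for the read counter, its strand setting and the annotation release nothing is stated in the labels. Per the labels, poly(A) RNA was selected and copied with random primers, and the samples are biological replicates whose cultures are not described further, so p-values cover the spread among these 6 samples, which may be technical. Within groups, libraries differed beyond sampling noise (chi-square of 6.68 to 21.6 per gene).

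The test was edgeR 4.0.16's quasi-likelihood test in R 4.3.3 on the deposited counts, with TMM normalisation, filterByExpr by group and Benjamini-Hochberg adjustment over 19682 genes at 0.05. It was tested on simulated data. Standard errors came from the F statistic, and CPM are given as mean ± SD. Positions and exonic lengths came from GENCODE 29 (GRCh38), which held all 42 genes. The alternatives were DESeq2's size factors, library size alone, an expression level offset (splines of 5 degrees of freedom, MASS 7.3.60.0.1), DESeq2 1.42.0, limma-voom (limma 3.58.1), no filter, a filter of CPM of at least 1 in 3 libraries, a replicate block and each library left out.

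The genes and lists were chosen with earlier results of these data known. Named are all 42 genes, with full values for those that passed and for the 3 largest log2 fold changes that did not, RNASEH1 and RNH1, and in each related list up to 4 genes that passed, by lowest adjusted p. The named subunit ratios and POLA1, RFC4, MCM10 and TIMELESS in full were chosen after their values were seen.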

Additional observations from a re-analysis of the deposited data

How the results depend on the processing

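MCM6, PCNA, RPA3, TIPIN and TYMS passed in the same direction in all 14 alternatives, and RRM1, POLD2, CDT1, MCM7 and GINS1 lost their call in at least 1; none of the 10 changed sign. Of the 32 other genes, 10 passed in at least 1 alternative and 14 changed sign in at least 1. With library size alone, 13 replication genes were higher and 3 lower, their median rose from -0.007 to 0.106, the median of all genes moved from 0.016 to 0.127, and 1433 rather than 2418 of all genes were lower, so relative to that shift the replication genes' median stayed slightly below that of all genes. The expression level offset gave 9 higher and 3 lower. There the replication genes' median was 0.037 against -0.009 over all genes, so the order of the medians was reversed. Under the other size factors, DESeq2, limma-voom and both filters, 5 to 7 were higher and 4 or 5 lower. Leaving out each library gave 4 to 9 higher and 3 or 4 lower, with medians from -0.030 to 0.027.

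The replicate numbers did not pair the samples (correlations of the deviations of same-numbered libraries 0.0486, 0.0054 and -0.215). Between unlike numbers the correlations ran from -0.269 (shControl 1 with shRNH1 2) to 0.273 (shControl 1 with shRNH1 3). For shControl 3 with shRNH1 2 the value was 0.217. Whether a variable shared across the groups took part was not tested. With a replicate block 5094 genes passed over all genes, against 5424 without it, and 5 replication genes were higher and 3 lower: POLD2 (0.30, edgeR adjusted p = 0.0501), GINS1 (0.28, edgeR adjusted p = 0.0742) and MCM7 (-0.30, edgeR adjusted p = 0.0613) did not pass.

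The related genes DBF4B, DBF4, POLE3, DSCC1, POLE4, CHTF18, ETAA1, RAD18, RRM2B and UHRF1 lost their call in at least 1 alternative, without changing sign. Depth limits TIPIN most, with 169 to 343 counts per library and the largest standard error of the 42 genes.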
